A study of Ambystoma mexicanum and Ambystoma andersoni and Ambystoma maculatum with 18 samples.

Results

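The transcripts described here are the 109 most abundant assembled features of the limb tip of larval Ambystoma andersoni, a salamander of the axolotl's genus. They were selected on measured level, so their height is a description and carries no test. The feature with the highest mean share of counts, And_TR66604_c1_g3, was set aside, and each library's counts were divided by its total outside that feature and scaled to counts per 1000000 (CPM). Every other feature with a mean of at least 1000 CPM over the 6 A. andersoni libraries became a member. The A. andersoni table lists 889287 features, of which 244050 were at 0 in all 6 libraries, and the 3 tables of the series list 2262193 features. The 109 members made up 0.0169% of the A. andersoni features with a count.

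Salamanders regrow an amputated limb: skin cells first close the wound and form a wound epidermis, and a mass of proliferating cells, the blastema, then builds up beneath it. Whole tissue from a limb tip mixes skin, connective tissue, skeleton, muscle, nerve and blood. In vertebrate tissue of this kind, transcripts of mitochondria, ribosomal proteins, keratins, collagens, contractile proteins and haemoglobins are commonly among the most abundant. None of the members can be given such a role here, because the feature IDs carry a number and no gene name. A table of 135668 RefSeq genes of the related axolotl (assembly UKY_AmexF1_1) held 0 of the 109 member IDs. The labelled tissue could for the same reason not be checked against marker genes, and no sequence of the features was available to print.

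Forelimbs were cut through the lower arm, the zeugopod, and the last 1 mm of tissue was taken for RNA sequencing 24 h later or at once (0 h). Each library pooled tissue of 5 larvae, and A. andersoni had 3 libraries at 24 h and 3 at 0 h; A. mexicanum and A. maculatum were sampled in the same way. All animals had been amputated and none is described as carrying a transgene or receiving an agent, so the 0 h libraries stand for tissue at the moment of cutting and not for an uncut limb. In such bulk tissue, fewer cells of a type and less RNA per cell cannot be told apart. The libraries at 24 h held 13686985, 13527203 and 11416858 expected counts and those at 0 h 14518378, 17206949 and 14237389. The lowest expected count of any member in any library was 1754, for which counting error alone is 2.39%. The set-aside feature took 30.6%, 19.8% and 30% of counts at 24 h and 21.8%, 15.6% and 39.3% at 0 h. Its share differed as much within a time as between times, and leaving it out of the total keeps it from changing the divisor of the members' CPM. The members of rank 1 and 4, of the same assembled component, still varied with it (Pearson's r over the 6 libraries 0.972 and 0.908). CPM is not divided by transcript length, so an order of members by CPM is an order of reads and not of molecules.

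The members together held 34.8%, 28.5% and 31.8% of the counts outside the set-aside feature at 24 h, against 35.2%, 31.8% and 36.8% at 0 h. The means were 31.7% ± 3.17 at 24 h and 34.6% ± 2.54 at 0 h (SD, n = 3 each), and the ranges overlapped. Mean levels ran between 1002 and 20910 CPM, with a median of 1644 CPM. Only 4 members averaged 10000 CPM or more, 13 lay at 5000 to 10000 CPM, 28 at 2000 to 5000 CPM and 64 at 1000 to 2000 CPM. The distribution was top-heavy: the 19 highest members summed to at least as much mean CPM as all other members together. Near the limit, the 3 lowest members averaged 1013, 1003 and 1002 CPM, and the first 3 features outside averaged 998, 973 and 966 CPM. Within single libraries, 100, 88 and 99 members reached 1000 CPM at 24 h and 95, 102 and 100 at 0 h, and 73 members did so in all 6 libraries. The mean was at least 1000 CPM at both times for 92 members. For 11 members it was lower at 24 h (653 to 976 CPM) and for 6 it was lower at 0 h (370 to 920 CPM), and these members entered through the time at which they were high.

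The leading member by counts, And_TR66604_c1_g2, stood at 25301, 14681 and 26805 CPM at 24 h and at 17557, 12223 and 28893 CPM at 0 h. The second, And_TR461619_c2_g1, had 14529, 10870 and 12260 CPM at 24 h and 14806, 16263 and 16205 CPM at 0 h. The third, And_TR51010_c9_g1, had 10721, 17507 and 12691 CPM at 24 h and 9139, 13932 and 14630 CPM at 0 h. Of these 3, only the second had every 24 h library under every 0 h library, by a log2 fold change of -0.38 ± 0.25 (SE; adjusted p = 0.433 by edgeR). The fold changes of the first and the third were 0.12 ± 0.43 and 0.04 ± 0.28 (edgeR adjusted p = 0.9 and 0.945). The fourth, And_TR66604_c1_g1, had 14723, 8800 and 15670 CPM at 24 h and 13123, 8974 and 16682 CPM at 0 h. Its second library was the lowest at both times, a profile that it shares with the leading member, which belongs to the same assembled component. The leading member averaged 22262 ± 6608 CPM at 24 h and 19558 ± 8513 CPM at 0 h, and the second 12553 ± 1847 CPM at 24 h and 15758 ± 825 CPM at 0 h (SD, n = 3 each). Every 24 h library of the leading member was above every 24 h library of the second, whereas their 0 h libraries overlapped.

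The member of rank 5 is the one leading member that rose, and its values are given below with the other members that changed. The sixth, And_TR44421_c0_g1, had 10461, 5944 and 8611 CPM at 24 h and 9857, 10735 and 11308 CPM at 0 h. The seventh, And_TR471664_c5_g3, had 8364, 13560 and 8612 CPM at 24 h and 5743, 9559 and 8938 CPM at 0 h. The eighth, And_TR438997_c8_g2, had 8523, 8004 and 9103 CPM at 24 h and 11596, 6853 and 7014 CPM at 0 h. The times overlapped in each of these 3 members, and their log2 fold changes were -0.39 ± 0.30, 0.26 ± 0.28 and -0.06 ± 0.30 (SE). The ninth, And_TR484077_c2_g1, had 7357, 2823 and 4865 CPM at 24 h and 10458, 8312 and 12057 CPM at 0 h. Every 24 h library lay under every 0 h library there, and the log2 fold change of -1.08 ± 0.41 did not pass the edgeR test (adjusted p = 0.172). The tenth, And_TR44990_c4_g1, had 6699, 5970 and 5386 CPM at 24 h and 9744, 11576 and 5794 CPM at 0 h, and the third 0 h library lay within the 24 h range. In each library, 7 or 8 of its own 10 most abundant features were among these 10 leading members. The leading members were ranked by the mean of the same 6 libraries, so this overlap is partly built in and is a description.

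**Figure D1:**
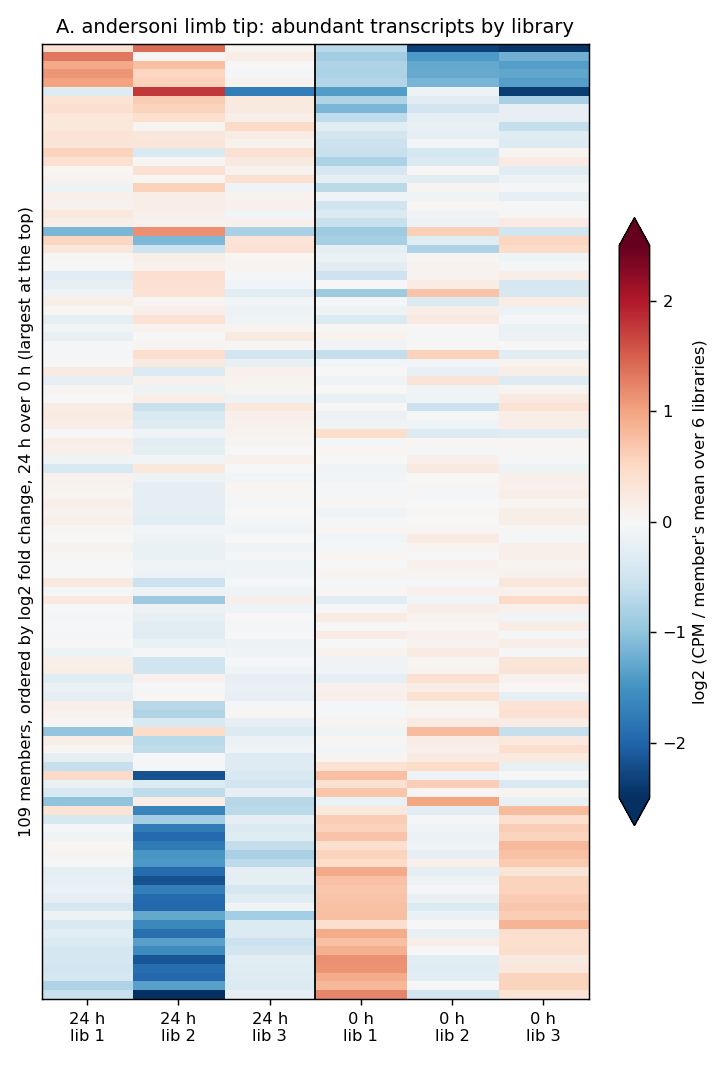
Level of each of the 109 members (rows, ordered by log2 fold change) in each library (columns, 24 h left of 0 h), as log2 of CPM over the member's mean of 6 libraries, with colours clipped at the ends of the scale. A few members at the top are high at 24 h, most of the middle is pale, and near the bottom a block is lowest in the second 24 h library.

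The comparison of 24 h with 0 h asks which of the abundant transcripts had changed in level a day after the cut. At an adjusted p of 0.05 by the quasi-likelihood test of edgeR, fitted on all 34397 features with enough counts, 4 members were higher at 24 h, which is 3.67% of the 109, beside a percent of tested features of 3.78. No member was lower, against 1.96% of tested features. With no adjustment of p, edgeR placed 11 members higher, where the background was 11.4%, and 14 lower, where it was 10.7%. In this edgeR fit the share of abundant transcripts that rose was thus near that of all tested transcripts. The share was 1.83% of members against 3.96% of features by edgeR's newer quasi-likelihood method, and 5.5% against 2.63% by DESeq2. By whole libraries, 16 members (14.7%) had every 24 h library above every 0 h library in CPM, beside 15.7% of tested features, and their ratios of means ran from 1.11 to 4.93. Conversely, 21 members (19.3%) had every 24 h library below every 0 h library, beside 12.3% of tested features, with ratios of 0.412 to 0.948. Ranks 46, 53, 97, 107 and 108 of the 16 averaged under 1000 CPM at 0 h, and ranks 77, 85 and 100 of the 21 did so at 24 h. They are members only through the time at which they are high, so these shares are a description. Rank 46 is also among the 4 called.

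Log2 fold changes of the members lay between -1.41 and 2.19 with a median of -0.14 and quartiles of -0.45 and 0.04. Over all tested features the median was -0.0009 and the quartiles were -0.40 and 0.44. In 77 members (70.6%) the fold change was negative, against 50.1% of tested features, and none of these 77 passed the test. The number of negative values was 65 when library totals without the set-aside feature set the scale (46% of features), 79 by DESeq2 (40.8%) and 84 with no filter (40.9%). It was 63 without the second 24 h library and 71 to 78 without any other single library. The fold change was under 0.5 in size in 71 members (65.1%), compared with 56.9% of tested features. It was under 1 in size in 83 of the 109 members, a smaller part than the 82.1% of tested features. It reached -1 or lower in 20 members and 1 or higher in 6.

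**Figure D2:**
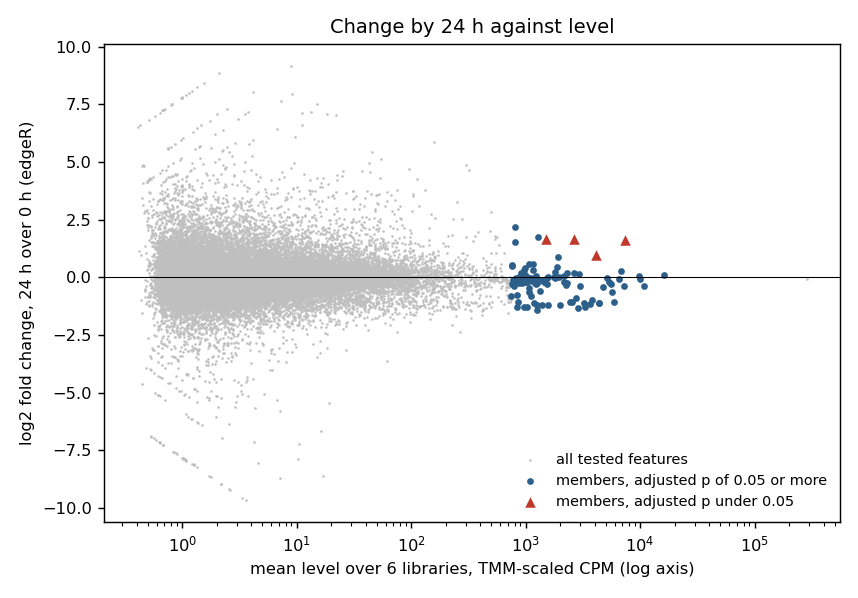
Log2 fold change at 24 h over 0 h (vertical axis) against mean TMM-scaled CPM over 6 libraries (log axis) for all tested features (grey) and the 109 members (blue, and red triangles for the 4 with an adjusted p under 0.05). The members lie at the right-hand end, between -1.41 and 2.19, and the 4 called members are all above 0.

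Of the 4 transcripts that rose, 3 were more than 3 times as high in mean at 24 h, and the fourth 2.01 times. And_TR453889_c2_g2, of rank 46, had 3833, 3359 and 2021 CPM at 24 h, against 1167, 826 and 768 CPM at 0 h. It averaged 3071 ± 940 CPM at 24 h and 920 ± 216 CPM at 0 h (SD, n = 3 each), which on the log2 scale is a difference of 1.68 ± 0.32 (SE; adjusted p = 0.0262 by edgeR). The lowest 24 h library was above the highest 0 h library, and its 0 h mean alone would not have made it a member. And_TR85252_c2_g3, of rank 27, had 7541, 5073 and 3430 CPM at 24 h, against 2005, 1460 and 1417 CPM at 0 h. Its log2 fold change was 1.66 ± 0.36 (SE; adjusted p = 0.0364 by edgeR), and here too the times did not overlap.

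The most abundant transcript that rose was the member of rank 5, with 19454, 14616 and 10406 CPM at 24 h, against 5865, 4366 and 3755 CPM at 0 h. It averaged 14825 ± 4527 CPM at 24 h and 4662 ± 1086 CPM at 0 h (SD, n = 3 each), which on the log2 scale is a difference of 1.62 ± 0.34 (SE; adjusted p = 0.0337 by edgeR). In the first 24 h library it was second in CPM to the leading member alone. The member of rank 17 had 6896, 8529 and 6518 CPM at 24 h, against 3244, 4538 and 3142 CPM at 0 h. Its log2 fold change was the smallest of the 4, at 0.95 ± 0.22 (SE; adjusted p = 0.0466 by edgeR). In the members of rank 5, 27 and 46 the first 24 h library was the highest and the third 24 h library the lowest, whereas rank 17 was highest in the second.

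**Figure D3:**
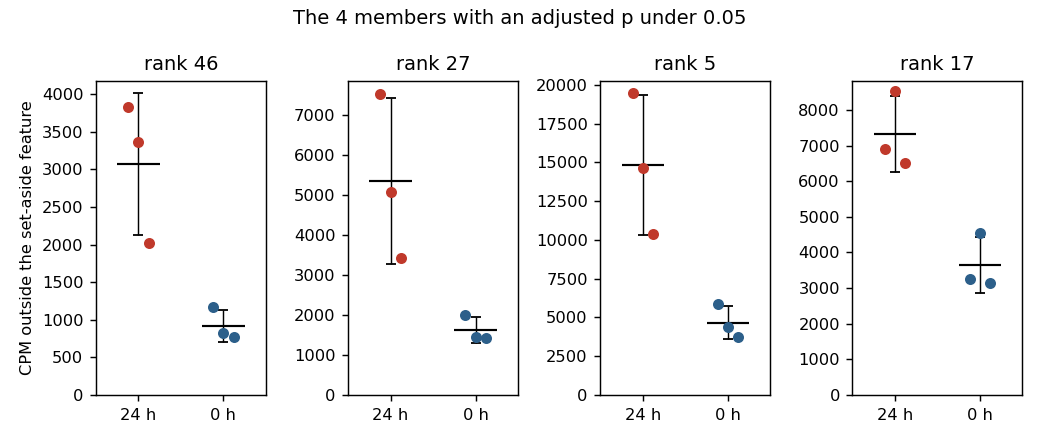
CPM outside the set-aside feature in each library (points) for the 4 members with an adjusted p under 0.05, 24 h left of 0 h, with the mean (bar) and SD (whiskers, n = 3). In every panel the 24 h points lie above all 0 h points. The gap is widest relative to the level in ranks 46, 27 and 5.

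These calls rest on few libraries. The 4 calls were kept without the second 24 h library, where the log2 fold changes were 1.68 for rank 46, 1.77 for rank 27, 1.70 for rank 5 and 0.91 for rank 17. Ranks 5, 17 and 27 lost their call when any other of the 6 libraries was left out, with edgeR adjusted p between 0.0511 and 0.112 for rank 5, 0.0633 and 0.145 for rank 17, and 0.0549 and 0.116 for rank 27. In these fits the log2 fold changes were 1.30 to 1.90 for rank 5, 0.89 to 1.11 for rank 17 and 1.26 to 1.93 for rank 27. Rank 46 lost its call without the second 0 h library (adjusted p = 0.0688), the third 0 h library (0.0947) or the first 24 h library (0.0772), with log2 fold changes of 1.59, 1.59 and 1.42. None of the 4 changed direction in these fits. The member of rank 17 also lost its call with library totals alone as the scale (adjusted p = 0.124), with the newer quasi-likelihood method (0.0907), with no filter on low counts (0.525) and with the features of its component summed (0.0535, log2 fold change 0.80), and rank 5 with the newer method (0.0575).

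Several members missed the threshold narrowly, and they were picked for this after their values were seen. The member of rank 97 had the highest fold change of all members, with 1426, 2888 and 1154 CPM at 24 h, against 690, 216 and 203 CPM at 0 h. Its log2 fold change was 2.19 ± 0.56 (SE; adjusted p = 0.0635 by edgeR). The member of rank 53 had 4207, 1736 and 1898 CPM at 24 h, against 927, 621 and 730 CPM at 0 h, a log2 fold change of 1.74 ± 0.42 (SE; adjusted p = 0.0527 by edgeR). Neither overlapped between times, but both had 0 h means under 1000 CPM (370 and 759) and are members only through the 24 h libraries in which they are high. Both passed edgeR when counts were summed over the features of a component (adjusted p = 0.0401 for rank 97 and 0.0213 for rank 53) and with no filter. Rank 53 also passed edgeR with DESeq2 size factors (adjusted p = 0.0498), library totals alone (0.0334) and totals without the set-aside feature (0.0314). It passed with that feature (0.0446) or its component (0.0447) left out too, and rank 97 passed in none of these settings. Without the first 0 h library rank 97 had a log2 fold change of 3.13 (edgeR adjusted p = 0.0249), and without any other single library it had 1.79 to 2.42 and did not pass. Rank 53 ranged between 1.14 without the first 24 h library and 2.02 without the second, the only one of these 6 fits in which it passed (edgeR adjusted p = 0.0248). The nearest to a call among members with a negative fold change was that of rank 24, with 2146, 1439 and 2872 CPM at 24 h, against 6552, 3699 and 5404 CPM at 0 h. Its log2 fold change was -1.34 ± 0.37 (SE; adjusted p = 0.0771 by edgeR). It was called lower by edgeR with library totals alone as the scale (-1.30, adjusted p = 0.0473) and with no filter (-1.44, adjusted p = 0.0013).

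DESeq2, the other count test, called larger shares of the members on both sides. It placed 6 members higher (5.5%) and 8 lower (7.34%). Of the 56905 features to which it gave an adjusted p, it placed 2.63% higher and 2.01% lower. That background holds more features than the 34397 that pass the count filter of edgeR, so the backgrounds are not alike. The 6 higher members were the 4 named above with those of rank 37 and 53. Of these, ranks 46 and 53 are members only through the 24 h libraries in which they are high. The 8 lower members included the ninth, with a DESeq2 log2 fold change of -1.12 and adjusted p of 0.0355, and that of rank 24, with -1.39 and 0.00168. Among the 8, log2 fold changes lay between -1.39 and -0.95, and 7 had no overlap between times. So whether any abundant transcript was lower at 24 h depended on the test, the scaling and the filter. There were 0 such members by edgeR as fitted and 8 by DESeq2. With library totals alone as the scale edgeR gave 1 such member, that of rank 24, beside 1.2% of tested features. With no filter on low counts it gave 18 members, beside 0.322% of the 641316 features then tested, and 6 of the 18 were among the 8 of DESeq2. Only 34397 of those features pass the filter, so most of that background has low counts and is not a like comparison. Of the 18, ranks 60, 65, 77, 85, 98 and 99 averaged 653 to 976 CPM at 24 h. They are members only through the 0 h libraries in which they are high, and rank 85 is also among the 8 of DESeq2.

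One library stood apart in the members and, among the 24 h libraries, also over all tested features. Across the 109 members, Pearson's r of log2 CPM between libraries was 0.953 for the first and the third 24 h libraries and 0.858 to 0.927 among the 0 h libraries. The second 24 h library gave 0.753 and 0.759 with the other 24 h libraries, 0.684 with the second 0 h library, and 0.426 and 0.458 with the first and the third 0 h libraries. Over all tested features, every pair lay between 0.880 and 0.973. There the first and the third 24 h libraries gave 0.973, and the second gave 0.925 and 0.932 with them. With the 0 h libraries the second gave 0.880, 0.929 and 0.882. Tested features span a wider range of levels than the members, so the size of r cannot be set against theirs. These values describe the libraries, since the points are members of the same libraries and share their depth. Among the 93 members outside the block of 16 described next, the r of the second 24 h library was 0.823 and 0.838 with the other 24 h libraries and 0.614 to 0.755 with the 0 h libraries. That library held the lowest value of 58 of the 109 members, and the highest of 19.

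A block of 16 members was low there together. They are the members whose CPM in the second 24 h library was under 0.5 times that in every other library, a group chosen after the values were seen, so it is given without a test. They made up 14.7% of members, where 1260 tested features (3.66%) met the same condition. In no other library was any member under 0.5 times all the others. Their ranks began at 15, and they came from 14 assembled components. Their summed share of counts was 3.89%, 1.19% and 3.65% at 24 h, against 7.92%, 4.01% and 6.4% at 0 h. Their geometric mean was 1969, 604 and 1870 CPM at 24 h, against 4079, 2053 and 3291 CPM at 0 h. The first and the third 24 h libraries thus lay just under the second 0 h library, the second 24 h library was far under all, and the first 0 h library was the highest. The highest library was the first at 0 h for 13 of the 16 and the third at 0 h for 3, and a 24 h library for 0. The other 2 libraries at 24 h averaged 2.17 to 5.28 times the second, with a median of 3.11. Rank 15, the highest of them, had 4836, 1479 and 4762 CPM at 24 h, against 10857, 4830 and 7065 CPM at 0 h.

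**Figure D4:**
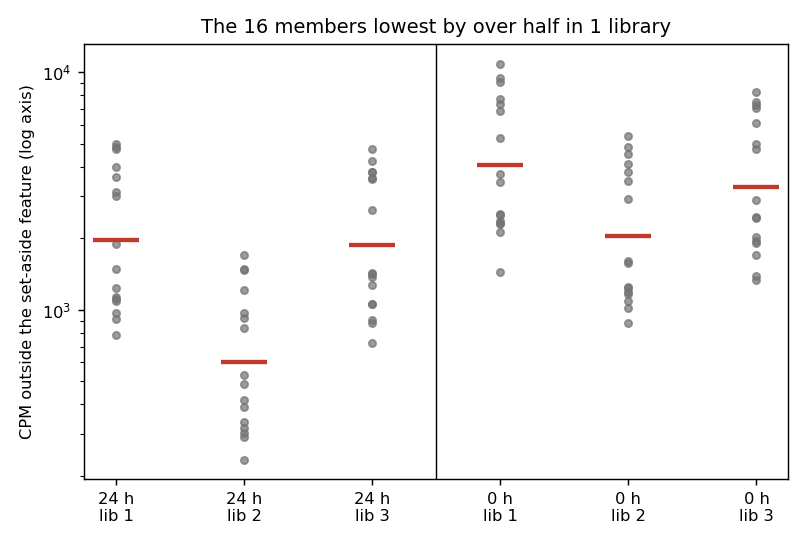
CPM outside the set-aside feature (log axis) of the 16 members that were under 0.5 times every other library in the second 24 h library, in each of the 6 libraries, 24 h left of 0 h. Points are members and red bars geometric means, which are 1969, 604 and 1870 CPM at 24 h and 4079, 2053 and 3291 CPM at 0 h.

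These 16 members were chosen as low in a 24 h library, so negative fold changes with all 6 libraries were partly built in. The counts that follow are a description and no account of the negative side. They held 15 of the 20 values at -1 or lower and 7 of the 21 members with every 24 h library below every 0 h library. Their log2 fold changes lay between -1.41 and -0.63 with a median of -1.13 with all 6 libraries, and between -0.95 and -0.15 with a median of -0.72 without the second 24 h library. By edgeR, 0 of them passed the adjusted threshold either way, and at an unadjusted p under 0.05 there were 6 with all libraries and 2 without that library. They also made up 3 of the 8 members that DESeq2 placed lower, and 14 of the 18 that edgeR placed lower with no filter. Among the 93 members left after that choice, 61 had a negative fold change and the median was -0.09. The second 24 h library had a lower share of the set-aside feature (19.8%) than the other 24 h libraries and the highest TMM factor of its time (1.207, against 0.903 and 0.974). The part of either in the low values was not tested.

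The member with the most spread within a time was that of rank 95, And_TR39777_c0_g1, with 898, 3809 and 338 CPM at 24 h and 426, 1019 and 216 CPM at 0 h. Its second library was the highest at both times, opposite to the block above, and its log2 fold change of 1.53 ± 0.82 (SE) did not pass edgeR (adjusted p = 0.321). Without the second 24 h library its log2 fold change was 0.24. It averaged 1682 CPM at 24 h and 554 CPM at 0 h, so it is a member only through 24 h, where that library is high. And_TR45902_c0_g1, of rank 75 and one of the 16, had 1901, 302 and 1057 CPM at 24 h and 2320, 1252 and 1386 CPM at 0 h. In both members the libraries of 1 time differed by more than the means of the times.

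At the other end, many members barely varied. In 39 members (35.8%) the highest of 6 libraries was under 1.5 times the lowest, compared with 9.13% of tested features. Members were selected on level, and level also sets counting error, so the contrast is a description. The steadiest of all, And_TR80272_c2_g2 of rank 52, had 1728, 1613 and 1628 CPM at 24 h and 1753, 1757 and 1733 CPM at 0 h, with a highest over lowest of 1.09. Among the members above 5000 CPM, And_TR484033_c1_g2 of rank 13 had 5965, 6807 and 7964 CPM at 24 h and 7193, 6662 and 6123 CPM at 0 h, a log2 fold change of -0.01 ± 0.22 (SE; adjusted p = 0.985 by edgeR). A narrow range over all 6 libraries also bounds the difference between times, so few calls and small fold changes were largely fixed by the choice. Of the 39, 0 were called by edgeR, 1 had an unadjusted edgeR p under 0.05 and 0 were called by DESeq2. Their log2 fold changes were at most 0.45 in size, and 6 of them averaged 2000 CPM or more. The median coefficient of variation of a member was 17.6% at 24 h and 18.3% at 0 h, and that of a tested feature 28.8% at 24 h and 25.7% at 0 h. In contrast, 22 members had a highest library at least 5 times the lowest.

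Members shared assembled components. The part of an ID before the last letter and number names a component, a group of related assembled features, and the 109 members fell into 97 components. There were 10 components with 2 or 3 members, which held 22 members in all. Expected counts divide reads that match several features, and 34 members (31.2%) had fractional counts in all 6 libraries, against 10.6% of tested features, while 60 members had whole counts in all. The split of such reads between features is uncertain, but fractional counts do not say whether the features were of the same component. The member of rank 58 had them in all 6 libraries, though its component holds 1 feature. The set-aside feature's component held 2 members, those of rank 1 and 4. Across the 6 libraries the set-aside feature had 15.1 to 22.5 times the counts of rank 1 and 20.5 to 38.9 times those of rank 4, and rank 1 had 1.34 to 1.73 times those of rank 4. These ranges are the lowest and highest values of the same 6 libraries, so they do not show steady ratios. Both ratios of the set-aside feature were lowest in the second 0 h library, where its share was lowest (15.6%). Both were highest in the third 0 h library, where its share was highest (39.3%).

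Other components differed in how uniform they were. The members of rank 16 and 85, both in the block of 16, kept a ratio of 3.94 to 5.43, and those of rank 49 and 99, also in it, one of 1.46 to 1.89. By contrast, the members of rank 7 and 22 ranged in ratio between 1.54 and 4.64. Rank 22 had 1805, 8809 and 2272 CPM at 24 h and 2171, 6024 and 2910 CPM at 0 h, highest in the second library of both times. The members of rank 36 and 38, whose counts were whole in every library, ranged in ratio between 0.607 and 1.76. Rank 38 had 3625, 1893 and 3224 CPM at 24 h and 1688, 1818 and 2593 CPM at 0 h, while rank 36 had 2201, 3323 and 2455 CPM at 24 h and 2026, 3056 and 2538 CPM at 0 h. Membership of a component therefore did not fix a common profile.

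A measure that needs no list of members is the number of features of at least 1000 CPM in each library by itself. It was 119, 111 and 107 at 24 h and 120, 113 and 118 at 0 h in A. andersoni, means of 112 ± 6.11 at 24 h and 117 ± 3.61 at 0 h (SD, n = 3 each). Those features held 32.7% ± 3.19 of counts outside the set-aside feature at 24 h and 36% ± 3.09 at 0 h (SD, n = 3 each). The 10 most abundant features of a library held 12.9%, 11.2% and 11.9% at 24 h and 11.7%, 10.6% and 13.5% at 0 h. None of the 3 measures differed between times beyond the spread: two-sided exact permutation tests gave p = 0.3, 0.2 and 1, where 0.1 is the smallest that 3 libraries against 3 can give (adjusted over the 3 tests, 0.45, 0.45 and 1).

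The same rule applied to the other species' tables gave 138 features in A. mexicanum and 100 in A. maculatum, each with its own most abundant feature set aside. Per library, A. andersoni had 115 ± 5.16 features of at least 1000 CPM over both times, A. mexicanum 129 ± 13.4 and A. maculatum 97.7 ± 11.7 (SD, n = 6 each). The difference was -14.5 from A. mexicanum (exact permutation of species within time, p = 0.02, adjusted p = 0.03) and 17 from A. maculatum (p = 0.01, adjusted p = 0.02). The means at 24 h were 112 in A. andersoni, 118 in A. mexicanum and 88.7 in A. maculatum, and those at 0 h were 117 in A. andersoni, 140 in A. mexicanum and 107 in A. maculatum, so A. andersoni and A. mexicanum lay further apart at 0 h. At a limit of 2000 CPM neither difference passed, with -4 from A. mexicanum (exact permutation p = 0.18) and 1.67 from A. maculatum (p = 0.49). These features held 34.4% ± 3.31 of counts in A. andersoni, 34.9% ± 3.2 in A. mexicanum and 48.8% ± 5.72 in A. maculatum (SD, n = 6 each). The difference in share from A. maculatum was -14.5 points, with an exact permutation p of 0.005, the smallest these 400 arrangements can give (adjusted p = 0.015). From A. mexicanum it was -0.505 points (exact permutation p = 0.785). With CPM over all counts, the set-aside feature included in the total, the difference in share from A. maculatum was -5.05 points and did not pass (exact permutation p = 0.105). The 10 most abundant features held 12% ± 1.05 in A. andersoni, 11.4% ± 1.76 in A. mexicanum and 27.5% ± 8.61 in A. maculatum (SD, n = 6 each). That share differed by -15.5 points from A. maculatum (exact permutation p = 0.005, adjusted p = 0.015), and by 0.558 points from A. mexicanum (exact permutation p = 0.52, adjusted p = 0.624). Its means at 24 h were 12% ± 0.824 in A. andersoni, 11.3% ± 2.65 in A. mexicanum and 32.9% ± 9.56 in A. maculatum. At 0 h they were 11.9% ± 1.44, 11.5% ± 0.832 and 22% ± 1.95 in the same order (SD, n = 3 each). The test of a difference in the change between times, A. andersoni against either species, permuted the times within both species. It passed in none of the measures (exact permutation, adjusted p 0.47 to 0.86 over 6 tests). Permuting times presumes no change in either species, and a change in either can widen the spread of permuted values. The result therefore cannot show that the changes were alike. Each species has its own assembly, so a difference between species and one between assemblies cannot be told apart, and features were not matched between tables.

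**Figure D5:**
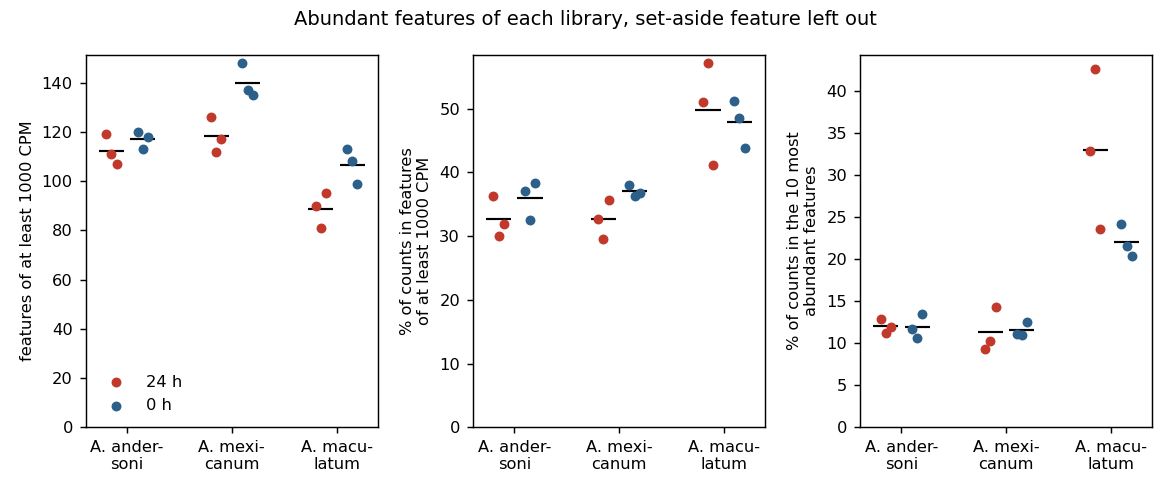
Number of features of at least 1000 CPM, their percent of counts, and the percent of counts in the 10 most abundant features, for each library (points, 24 h left of 0 h) of A. andersoni, A. mexicanum and A. maculatum, with group means (bars) and the set-aside feature left out. In the third panel all A. maculatum libraries lie above all A. andersoni libraries, which span 10.6% to 13.5%.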

How the data were processed

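RNA of 3 libraries per time was analysed for each of 3 species. Per the labels, and likewise the submitters' processing notes, the authors estimated expected counts for each assembled feature by RSEM. Not given in the sources used here: its version, the aligner, the assembler and where the assemblies came from. Members and the lists of settings were chosen with earlier results of these data known.

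Expected counts were rounded to whole numbers. The 24 h and 0 h libraries of A. andersoni were compared with edgeR 4.0.16 (R 4.3.3), by its older quasi-likelihood F test after TMM scaling, in a model of time alone. Low features were removed by filterByExpr (minimum count of 10, minimum total of 15), and p-values were adjusted over the 34397 tested features by the Benjamini-Hochberg method, with 0.05 as the threshold. All 109 members were tested. Fold changes are 24 h over 0 h on the log2 scale, and the SE is the fold change divided by the square root of F. DESeq2 1.42.0 was the alternative test. CPM, means and permutation tests were computed in Python 3.11.15 with numpy 2.4.6, scipy 1.17.1 and pandas 2.3.3, from counts as deposited. A library's total limits its precision by counting error, which is small at these levels.

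Libraries were grouped by the labelled time. The labels say that each pools 5 larvae, and not that pools came from separate clutches, so p-values measure the spread between these libraries. The rule for named features took the 10 members of highest mean, the 2 largest rises and falls past the threshold, the 3 features on each side of the limit, and the 2 members with most spread within a time. Of these, the member of rank 5 appears by rank and the features at the limit by their values. The members of rank 13 and 52, given as steady ones, were named outside the rule. Other members that passed or missed a test appear by rank.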

Additional observations from a re-analysis of the deposited data

How the results depend on the processing

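No paired analysis was possible because the replicate numbers are in accession order only and pair no libraries. Among the 109 members, edgeR called 4 (3.67%, against 5.74% of tested features). The count was 14 by DESeq2 (12.8%, against 4.64% of its larger set of features). It was 2 by the newer quasi-likelihood method (1.83%, against 6.08%) and 0 to 5 with 1 library left out (against 1.55% to 7.54%). It was 24 with no filter on low counts (22%, against 0.649% of features that mostly have low counts). Of these 24, ranks 46, 53, 95 and 97 averaged under 1000 CPM at 0 h. Ranks 60, 65, 77, 85, 98 and 99 did so at 24 h. They are members only through the time at which they are high, so this share is a description. The count was 4 or 5 under the other scalings (with library totals alone, 1 of the 5 was lower), with the set-aside feature or its component left out, and with components summed. Those were 3.67% to 5.15% of members or their components, against 3.6% to 8.42% of all tested. The members' share was above that of all features with library totals alone (4.59%, against 3.6%) and below it in the rest. Over all tested features 1974 were called, 1238 with library totals alone as the scale, 4165 with no filter (50.4% of them higher, against 65.8%) and 534 to 2594 with 1 library left out. The number of members was 241 at a limit of 500 CPM and 45 at 2000 CPM, 76 with CPM over all counts and 77 with TMM-scaled CPM. Their mean share was 33.1% outside the set-aside feature and 24.3% of all counts.

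Fold changes near 0 changed sign among uncalled leading members. With 1 library left out, the log2 value ran from -0.13 to 0.56 for rank 1, -0.09 to 0.22 for rank 3, -0.26 to 0.22 for rank 4 and -0.20 to 0.32 for rank 8. With no filter rank 3 had -0.03, with library totals alone rank 4 had 0.03, and with totals without the set-aside feature ranks 4 and 8 had 0.02 and 0.01.

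The number of features per library, set against A. mexicanum, differed by -17.7 at 500 CPM (exact permutation p = 0.05) and -4 at 2000 CPM (p = 0.18). Set against A. maculatum it differed by 1.67 at 2000 CPM (exact permutation p = 0.49) and 17.8 with CPM over all counts (p = 0.06), and the share in such features then differed by -5.05 points (p = 0.105). That share against A. mexicanum was 1.09 points higher at 2000 CPM, and -1.38 to 0.368 with 1 library left out. The share of the top features, 24 h minus 0 h, was -1.08 for the top 20, -2.34 for the top 50, -0.00224 over all counts and -0.57 to 0.853 with 1 library left out. Against A. mexicanum it was -0.0403 for the top 5 and -0.317 over all counts. The cause of these shifts was not tested. Leaving out the set-aside feature's component, and the fit with and without the block of 16 members' low library, were chosen after seeing the data. Among single members, the calls lost by ranks 5, 17, 27 and 46 are given with their values in the results, and rank 9 passed by DESeq2. Rank 95 passed with no filter (log2 fold change 1.47, edgeR adjusted p = 0.000156). It is a member only through 24 h, where its second library is high, so that call is a description.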

Other observations

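The A. andersoni table listed 1 feature whose ID carries the prefix Ax in place of And, and it held 3 expected counts summed over the 6 libraries.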
